A study of Danio rerio with 15 samples.

Results

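The genes described here are the activators of the circadian clock, arntl1a, arntl1b, arntl2, clocka, clockb and npas2, together with the cryptochrome gene cry4. They were selected by symbol, and all 7 were present among the 14971 genes of the deposited count tables. The samples were zebrafish brains, taken after an exposure of 56 days to dibromoacetonitrile (DBAN), which forms when water containing bromide is disinfected. The 5 groups of poly(A) RNA libraries were females at doses of 0, 40 and 200 µg/L, and males at doses of 40 and 0 µg/L, and each group held 3 libraries. No strain, age or genetic modification is given for any group, and all fish were kept at 28 °C with 14 h of light and 10 h of dark. The hour at which brains were collected is not given. For clock genes a difference in that hour between the groups and an effect of DBAN therefore cannot be told apart. The number of fish per library is not given either, so that errors measure the spread between these libraries, which may be technical.

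The vertebrate clock is a feedback loop of transcription. BMAL proteins, encoded by the arntl genes, pair with CLOCK or its relative NPAS2, and the pairs bind E-box sites and switch on genes of the period and cryptochrome families, whose proteins then repress the pair. A second loop runs through the nuclear receptors Rev-erb and ROR, which in mammals repress and activate Bmal1, so that Bmal1 transcripts peak when Rev-erb transcripts are low. Zebrafish carry several copies of most of these genes. In cell assays, zebrafish Cry4 does not repress the CLOCK:BMAL pair as some other cryptochromes do, and Cry4 of birds has been studied as a light and magnetic sensor.

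Totals were 10488947 to 49388334 counts per library. They were 18365050 to 22630829 in female controls, 33198859 to 49388334 in females at 40 µg/L and 10488947 to 17684130 in females at 200 µg/L, so that depth coincided with dose in females. In males they were 31576124 to 48621981 at 40 µg/L and 35666401 to 42122528 in controls. Between 40.5% and 49.6% of the values from 1 to 40 in a library were multiples of 4. Genes that had no count in 10 or more of the other 14 libraries were taken as rare. Their median count in a library, called the rare-gene median here, can be high where few molecules were sequenced many times, which was not measured. For females at 40 µg/L the rare-gene median was 28, 8 and 35 (replicates 1, 2 and 3), for females at 200 µg/L 10, 17 and 8, for males at 40 µg/L 39, 40.5 and 132, and in the 6 control libraries 8 to 11. A value at or under 3 times that median is called under the floor below. Sums over 11 brain markers (the list includes elavl3, snap25a and gfap) were lower at 40 µg/L in both sexes without overlap. They were at 9787 to 10308, 8956 to 9198 and 8964 to 10718 CPM in females at 0, 40 and 200 µg/L, and at 7961 to 9601 CPM in males at 40 µg/L, against 10707 to 11144 CPM in male controls. The single markers did not all fall. In females at 40 µg/L syt1a and fabp7a were below the controls without overlap, gfap was above them and the others overlapped. In males snap25b and elavl4 were above the controls without overlap, gfap, plp1a and fabp7a overlapped and the others were below. The part of these differences in the values below was not tested.

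Levels are given as CPM, each gene's count relative to its library's total, scaled with TMM factors over the 15 libraries. The genes were chosen with these values known, so levels, fold changes and calls of the 7 genes describe the libraries and test nothing. They are not compared with each other as levels, since no transcript lengths were used. In whole-brain RNA, fewer cells that express a gene and less RNA per cell cannot be told apart.

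arntl1a encodes Bmal1a, 1 of the 2 zebrafish copies of the main partner of CLOCK (chromosome 25, 17893784 to 17918536, in the coordinates of the deposited tables, which name no genome build). It was high in every exposed library of both sexes. In female replicates 1, 2 and 3 it was at 87.3, 111 and 119 CPM in controls, at 278, 235 and 280 CPM at 40 µg/L, and at 176, 299.6 and 244 CPM at 200 µg/L. In males it was at 333, 257 and 263 CPM at 40 µg/L, against 60.3, 84.6 and 66.7 CPM in controls. No exposed library overlapped with the controls of its sex, and the exposed groups overlapped with each other. The means were 106 ± 16.6 CPM in female controls, 265 ± 25.3 CPM in females at 40 µg/L and 240.2 ± 61.7 CPM in females at 200 µg/L (SD, n = 3). They were 284 ± 42.0 CPM in males at 40 µg/L and 70.5 ± 12.5 CPM in male controls (SD, n = 3).

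On the log2 scale the fitted difference of arntl1a was 1.32 ± 0.22 (SE) in females at 40 µg/L, 1.18 ± 0.22 in females at 200 µg/L and 2.01 ± 0.19 in males at 40 µg/L, each against the controls of its sex. The 2 female comparisons share their controls. The female doses differed by -0.14 ± 0.22, 200 minus 40 µg/L. Female 40 µg/L replicate 2, the library of that group with a rare-gene median of 8, had the lowest arntl1a of its group, 235 CPM, above every control. With that library alone for the group the log2 difference was 1.13 ± 0.31, a group of 1 library being assumed to vary like the others. In males all 3 exposed libraries had a rare-gene median of 39 or more, so that this and the exposure cannot be told apart there.

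cry4 (chromosome 22, 819980 to 831569) was high at 40 µg/L in both sexes. In female replicates 1, 2 and 3 it was at 59.4, 95.2 and 72.5 CPM in controls, at 195, 125 and 196 CPM at 40 µg/L, and at 83.0, 114 and 96.5 CPM at 200 µg/L. In males it was at 234, 206 and 207 CPM at 40 µg/L, against 59.9, 77.5 and 76.5 CPM in controls. The 40 µg/L libraries lay above all controls of their sex, whereas the 200 µg/L libraries overlapped with the female controls and lay below every female 40 µg/L library. The fitted log2 difference was 1.18 ± 0.25 (SE) in females at 40 µg/L, 0.37 ± 0.25 in females at 200 µg/L and 1.59 ± 0.16 in males at 40 µg/L. Between the female doses it was -0.81 ± 0.25, 200 minus 40 µg/L. In females at 40 µg/L the replicates with rare-gene medians of 28 and 35 were the 2 highest. With replicate 2 alone for that group the log2 difference was 0.70 ± 0.32.

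**Figure D1:**
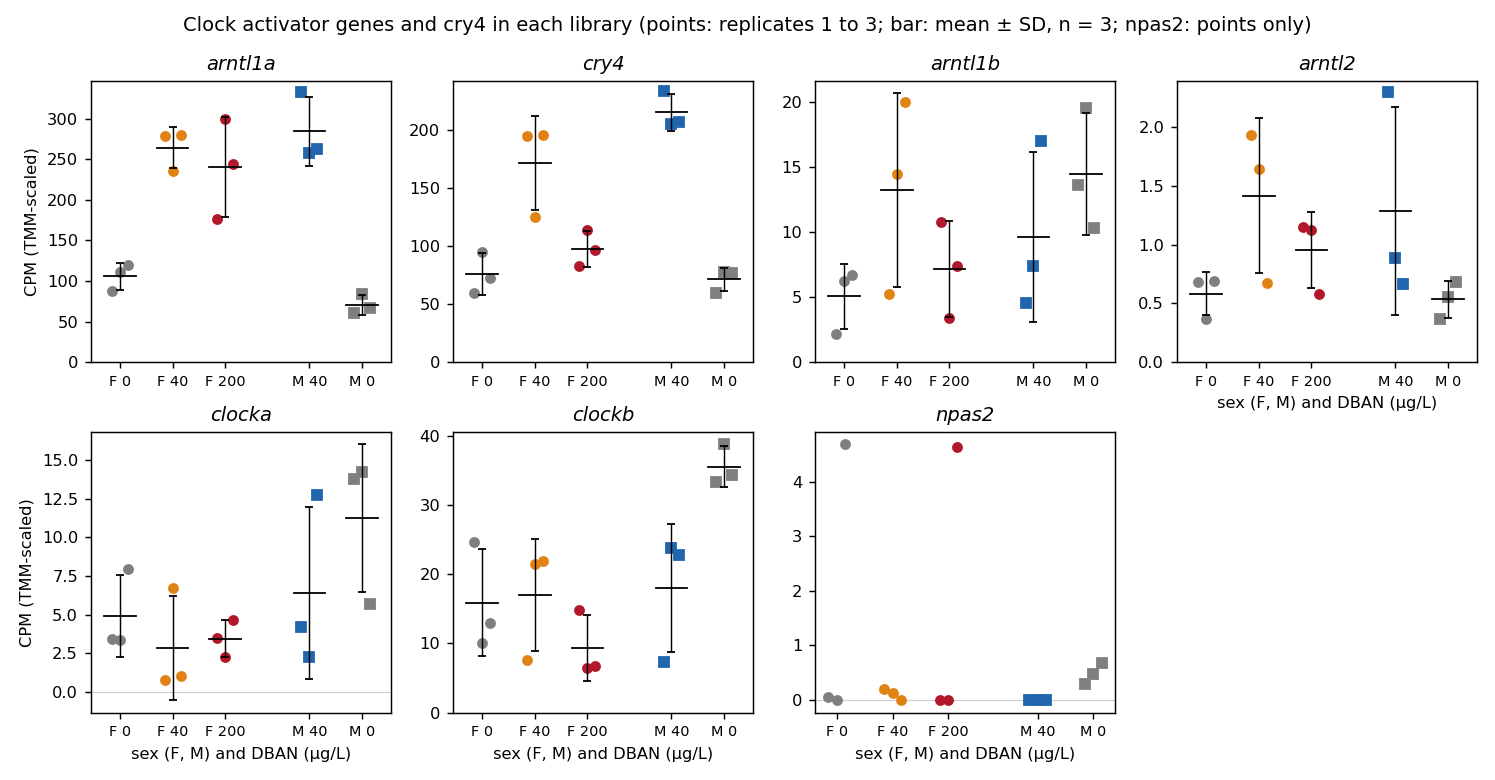
CPM of each of the 7 genes in each library, by sex (F, M) and DBAN in µg/L; points are replicates 1 to 3 from left to right, and bars are the mean ± SD (n = 3), left out for npas2. arntl1a is above the controls in all exposed groups, cry4 at 40 µg/L in both sexes, and clockb is highest in the male controls.

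arntl1b, the other Bmal1 copy, and arntl2, which encodes Bmal2, were far more variable. arntl1b (chromosome 7, 66072580 to 66105540, and also listed on an alternative contig, between which reads can be shared) was at 2.19, 6.27 and 6.73 CPM in female controls, 5.25, 14.5 and 20.0 CPM at 40 µg/L and 10.8, 3.38 and 7.39 CPM at 200 µg/L. In males it was at 4.52, 7.41 and 17.0 CPM at 40 µg/L, against 13.6, 19.6 and 10.3 CPM in controls. Exposed libraries overlapped with the controls in all 3 comparisons, with log2 differences of 1.39 ± 0.65, 0.51 ± 0.64 and -0.59 ± 0.58 in females at 40 and 200 µg/L and in males at 40 µg/L. The values of 200 µg/L replicate 2 and male 40 µg/L replicate 1 were under the floor. Without male 40 µg/L replicate 3 the male difference was -1.29 ± 0.46.

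arntl2 (chromosome 18, 15570910 to 15610484, and on 2 alternative contigs) had 7 to 75 counts per library and was under the floor in 13 of 15 libraries. It ranged from 0.37 to 2.30 CPM, and the group means were 0.58, 1.42 and 0.95 CPM in females at 0, 40 and 200 µg/L, 1.28 CPM in males at 40 µg/L and 0.54 CPM in male controls. Exposed libraries overlapped with the controls in each comparison, and no difference was detectable at this depth.

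The share of the arntl counts that came from arntl1b, which does not depend on the scaling, separated the male groups. It was 1.33% to 6.05% in males at 40 µg/L, against 13.2% to 18.7% in male controls. In females it was 2.43% to 5.33% in controls, 1.84% to 6.66% at 40 µg/L and 1.11% to 5.73% at 200 µg/L, and these ranges overlapped. The female controls lay below the male controls without overlap. arntl1a made up 80.8% to 85.9% of the arntl counts in male controls and 93.1% or more in the other 12 libraries. A higher arntl1a by itself lowers the share of arntl1b. In males arntl1a averaged 284 CPM at 40 µg/L, against 70.5 CPM in controls, whereas the CPM of arntl1b overlapped between these groups.

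The genes of the partners of Bmal were not higher in exposed libraries without overlap in any comparison with controls. clocka (chromosome 20, 22130284 to 22175026) was at 3.42, 3.37 and 7.99 CPM in female controls, 0.77, 6.72 and 1.06 CPM at 40 µg/L and 3.50, 2.25 and 4.65 CPM at 200 µg/L. In males it was at 4.21, 2.27 and 12.7 CPM at 40 µg/L and at 13.8, 14.2 and 5.73 CPM in controls. All 3 comparisons overlapped, with log2 differences of -0.79 ± 0.91, -0.50 ± 0.91 and -0.82 ± 0.76 (SE). In females at 40 µg/L the 2 low values were those of the replicates with rare-gene medians of 28 and 35, and both were under the floor. The log2 difference was -2.42 ± 0.94 without replicate 2 and 0.42 ± 0.90 with replicate 2 alone. In males it was -1.82 ± 0.60 without 40 µg/L replicate 3, and the 2 exposed values left, 108 and 102 counts, were both under the floor. The value of 200 µg/L replicate 2 was under the floor as well, so that clocka was under it in 5 libraries.

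clockb (chromosome 1, 19434198 to 19466453), the other Clock copy, was above the floor in all 15 libraries. It was at 24.6, 10.1 and 13.0 CPM in female controls, 7.65, 21.4 and 21.9 CPM at 40 µg/L and 14.9, 6.39 and 6.81 CPM at 200 µg/L. In males it was at 7.28, 23.7 and 22.8 CPM at 40 µg/L, against 33.3, 38.9 and 34.4 CPM in controls. The male groups did not overlap and the female groups did. The log2 differences were 0.10 ± 0.53, -0.76 ± 0.53 and -0.98 ± 0.45 (SE) in females at 40 and 200 µg/L and in males at 40 µg/L.

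npas2 (chromosome 5, 22791731 to 22830624, and on an alternative contig) had a count of 0 in 7 libraries and was under the floor in 12. The 3 exceptions were female control replicate 3 with 115 counts, 200 µg/L replicate 3 with 56 and male control replicate 3 with 27. It was listed at 0 in all 3 males at 40 µg/L, against 14, 23 and 27 counts in male controls. Since the floor of those exposed libraries was 117, 121.5 and 396 counts, the difference was not detectable at this depth and no fold is given.

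**Figure D2:**
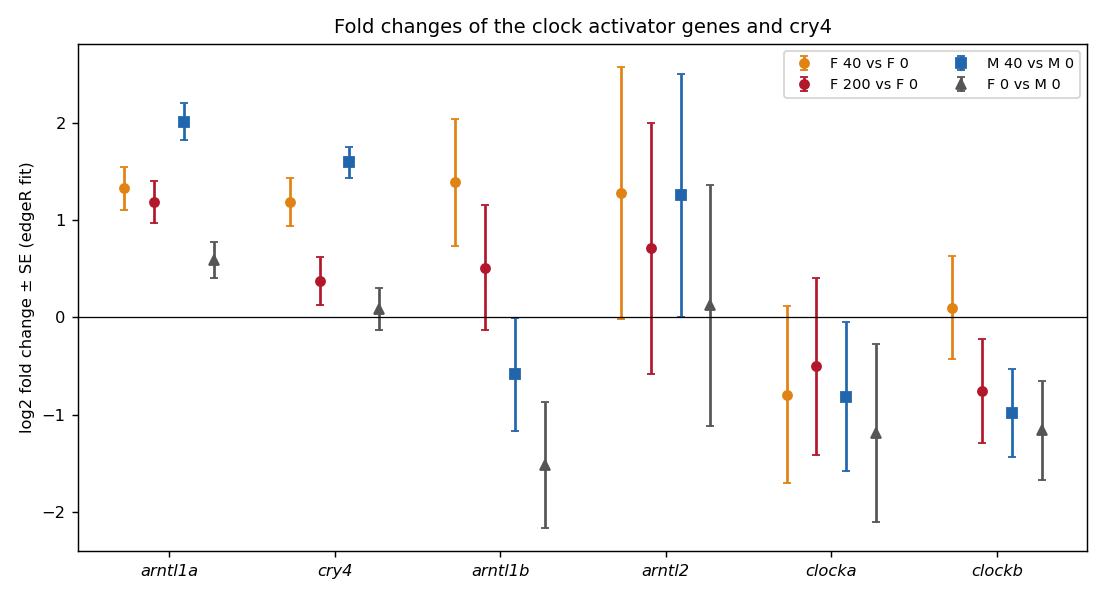
Log2 fold changes of 6 of the genes (y axis, edgeR fit, bars ± SE) in females at 40 and 200 µg/L against female controls, males at 40 µg/L against male controls and female against male controls. arntl1a is at 1.32, 1.18 and 2.01 in the exposure comparisons, cry4 at 1.18, 0.37 and 1.59, and the error bars of arntl2 are the widest, with SEs of 1.24 to 1.29.

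In the fit across all genes (edgeR quasi-likelihood test, Benjamini-Hochberg adjusted p under 0.05), 6 of the 7 genes passed the filter on low counts in females and all 7 in males. At 40 µg/L in females 1 of the 7, arntl1a, was called, against 0.238% of the 12601 genes tested, and 2 (arntl1a and cry4) did not overlap with the controls, against 25% of all genes. That call depended on the libraries. It was lost without any 1 of 7 of the 9 female libraries (log2 1.20 to 1.42 over all 9), and it held without 40 µg/L replicate 2 or 200 µg/L replicate 2, when cry4 was called as well. At 200 µg/L none was called by edgeR, against 0.0556% of all genes. Of the 7, arntl1a had an unadjusted p under 0.05, as did 1365 of the 12601 genes tested, and DESeq2 called arntl1a. 1 of the 7, again arntl1a, did not overlap, against 17.9% of all genes. Its log2 difference was 0.99 to 1.36 without any 1 library. Between the female doses none was called by edgeR, against 3.93% of all genes. There cry4 had an unadjusted p under 0.05, as did 2661 of the 12601 genes tested, and DESeq2 called cry4. It was also the 1 gene of the 7 without overlap, against 25.3% of all genes. In males 2 of the 7, arntl1a and cry4, were called, against 15.6% of 12454 genes, and both calls held without any 1 of the 6 libraries. 4 genes did not overlap, arntl1a and cry4 higher and clockb and npas2 lower, against 44.6% of all genes. The npas2 difference was not detectable at this depth, since its control counts of 14 to 27 were under the floor of the exposed libraries.

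The median log2 difference of the tested genes of the 7 was 1.23 in females at 40 µg/L (-0.03 over all tested genes), 0.44 at 200 µg/L (0.00322 over all) and -0.59 in males at 40 µg/L (-0.16 over all). The male median rests on npas2, whose fitted difference is not interpretable at counts of 0, and it was 0.33 over the other 6 genes. arntl2, which was under the floor in 13 of 15 libraries, also bears on 2 of these medians. The 1.23 lies between cry4 (1.18) and arntl2 (1.27), and the 0.33 between arntl2 (1.25) and arntl1b (-0.59). These medians describe genes chosen with the values known and test nothing.

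Ratios of 2 genes within a library do not depend on the scaling. nr1d1 encodes Rev-erb alpha, the receptor that represses Bmal1 in mammals. The ratio of arntl1a to nr1d1 counts was 0.186 ± 0.0339 in female controls, 2.65 ± 0.284 at 40 µg/L and 1.64 ± 0.98 at 200 µg/L (SD, n = 3). In males it was 3.21 ± 1.15 at 40 µg/L, against 0.262 ± 0.0798 in controls. The exposed libraries ranged from 1.03 to 4.10 and the controls from 0.156 to 0.348, and these do not overlap. This follows from the single genes, since every exposed library lay above every control in arntl1a and below every control in nr1d1. The ratio was chosen with the values of both genes known. The mean log2 ratios differed by 3.84 ± 0.18 (SE) in females at 40 µg/L, 3.00 ± 0.48 in females at 200 µg/L and 3.58 ± 0.42 in males at 40 µg/L.

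The ratio of cry4 to arntl1a was lowest in the females at 200 µg/L. It was 0.715 ± 0.128 in female controls, 0.643 ± 0.0973 at 40 µg/L and 0.415 ± 0.0486 at 200 µg/L (SD, n = 3). The 200 µg/L libraries, at 0.379 to 0.47, lay below every other library, since the female controls were at 0.608 to 0.857 and the females at 40 µg/L at 0.531 to 0.699. In males the ratio was 0.763 ± 0.053 at 40 µg/L and 1.02 ± 0.117 in controls, again without overlap. cry4 thus rose less than arntl1a in the males at 40 µg/L, with a log2 difference of the ratio of -0.41 ± 0.11 (SE), against -0.78 ± 0.17 in females at 200 µg/L and -0.15 ± 0.20 in females at 40 µg/L.

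**Figure D3:**
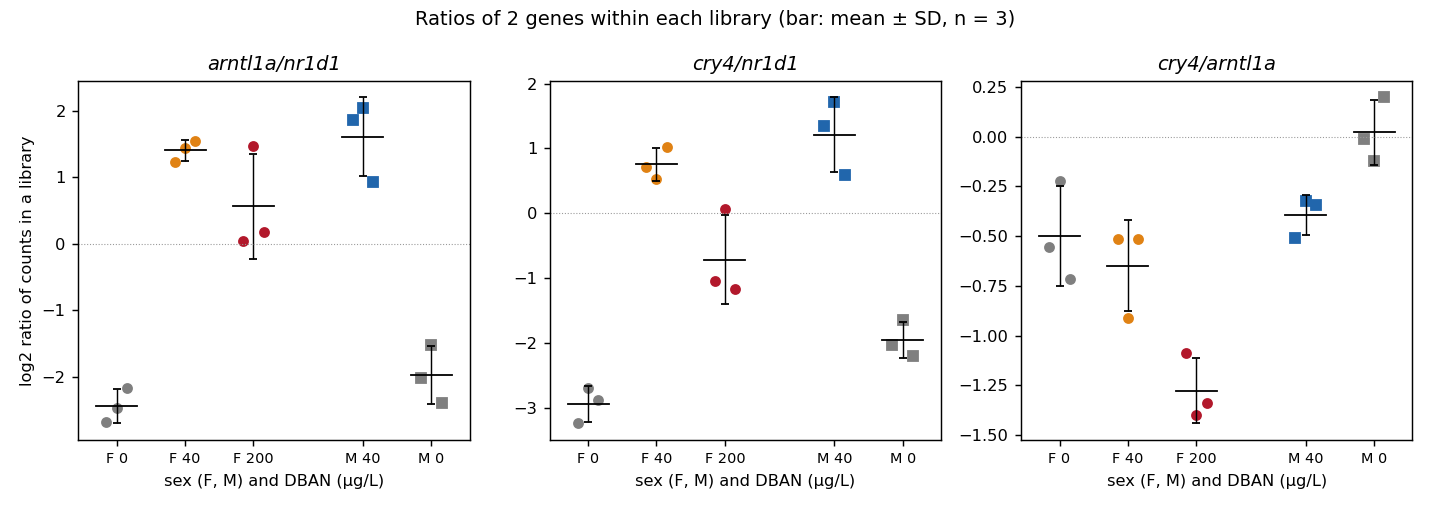
Log2 ratios of the counts of 2 genes within each library (y axis), by sex (F, M) and DBAN in µg/L; points are replicates 1 to 3 and bars the mean ± SD (n = 3). arntl1a over nr1d1 is positive in every exposed library and negative in every control, and cry4 over arntl1a is lowest in the females at 200 µg/L.

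Unexposed females and males were also compared. arntl1a was at 87.3 to 119 CPM in female controls, against 60.3 to 84.6 CPM in male controls, without overlap and with a log2 difference of 0.59 ± 0.18, female minus male. clockb was lower in the female controls, at 10.1 to 24.6 CPM against 33.3 to 38.9 CPM in male controls (log2 -1.16 ± 0.51), and so was arntl1b, at 2.19 to 6.73 CPM against 10.3 to 19.6 CPM (log2 -1.51 ± 0.64). cry4 overlapped between the controls (log2 0.09 ± 0.22). 3 of the 7 genes did not overlap, against 39.9% of all genes. None of the 7 was called by edgeR, against 4.4% of 13149 genes. 3 had an unadjusted p under 0.05, as did 2679 of the 13149 genes, and DESeq2 called arntl1a. The controls also differed in depth, 18365050 to 22630829 counts in females against 35666401 to 42122528 in males. Of the 11 brain markers, edgeR called gad1b and slc17a6b lower in females (means of 435 and 18.8 CPM, against 1038 and 86.1 CPM). It called elavl4 higher (1948 against 1221 CPM). The part of either in these values was not tested.

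At 40 µg/L arntl1a overlapped between females (235 to 280 CPM) and males (257 to 333 CPM), while cry4 was at 125 to 196 CPM in females and 206 to 234 CPM in males. The log2 effect of 40 µg/L, female minus male, was -0.69 ± 0.26 (SE) for arntl1a, 1.97 ± 0.90 for arntl1b, -0.41 ± 0.31 for cry4, 1.08 ± 0.71 for clockb and 0.02 ± 1.30 for clocka. None of the 7 was called for this difference by edgeR or DESeq2, and 2, arntl1a and arntl1b, had an unadjusted p under 0.05. Over all 13149 genes edgeR called 0 (0%), 1909 had an unadjusted p under 0.05 and DESeq2 called 503.

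Pattern likeness was measured over the 15 libraries and 8589 genes with a count above 0 in all of them, as the root mean square difference of centred log2 CPM, which is 0 for identical patterns. The nearest genes to arntl1a, whose own deviation was 0.84, were spout1 (0.25), a gene of an SPOUT-domain methyltransferase, and the ribosomal protein genes rpl28 (0.26) and rpl37 (0.27). rpl28 averaged 956, 1869 and 1658 CPM in females at 0, 40 and 200 µg/L, 2441 CPM in males at 40 µg/L and 574 CPM in male controls. cry4 ranked 209th among the neighbours of arntl1a (0.45). The nearest genes to cry4 were helz (0.17), a helicase gene, ddb1 (0.19), which encodes an adaptor of CUL4 ubiquitin ligases, and khdc4 (0.20), a gene of an RNA-binding protein. ddb1 averaged 345, 693 and 399 CPM in females at 0, 40 and 200 µg/L, 771 CPM in males at 40 µg/L and 321 CPM in male controls.

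For clockb the nearest genes were ttyh3b (0.35), jph3 (0.37) and atp6v0a1b (0.37), of which atp6v0a1b, a proton pump subunit gene, averaged 95.4 CPM in males at 40 µg/L and 292 CPM in male controls. arntl1a ranked 8031st and cry4 6642nd among the neighbours of clockb. The nearest genes were ppp1r13l (0.44), aebp1 (0.60) and yrdc (0.61) for arntl1b, gna13a (0.70), cnnm2a (0.71) and ppp2r5cb (0.72) for clocka, and amotl2b (0.39), tuba1b (0.39) and the dopamine receptor gene drd3 (0.42) for arntl2. The distances of arntl1b and clocka are large beside their own deviations of 0.90 and 1.18, and arntl2 is rare. npas2 could not be ranked, since it was at 0 in 7 libraries.

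The other clock genes were described by lists of 50 genes present in the tables. In females at 40 µg/L 2 of 48 tested fell and none rose, at 200 µg/L 3 fell and none rose, and in males at 40 µg/L 19 of 49 fell and 2 rose. Over all tested genes 0.143% were called lower at 40 µg/L in females and 0.0952% higher, 0.0476% lower and 0.00794% higher at 200 µg/L, and 7.25% lower and 8.38% higher in males. The median log2 difference of the clock genes was -0.37, -0.58 and -0.96 (-0.03, 0.00322 and -0.16 over all tested genes). Exposed males also differed from male controls in the rare-gene median. In addition, 5 of the 11 brain markers (syt1a, elavl3, gad1b, slc17a6b and snap25a) fell in them, slc17a6b being under the floor in 40 µg/L replicate 3. Over the 11 markers the median log2 difference was -1.04. The part of either in these counts was not tested. All adjusted p below are from edgeR.

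Of the Rev-erb and ROR genes, which act on Bmal1 promoters in mammals, nr1d1 was the 1 of 10 that passed in females. It averaged 569.9 ± 40.8 CPM in female controls and fell to 101 ± 16.4 CPM at 40 µg/L and 165 ± 54.7 CPM at 200 µg/L (adjusted p = 0.0117 and 0.0330). In males nr1d1 (log2 -1.51, adjusted p = 0.0250), nr1d2a (-1.66), nr1d2b (-1.13) and the ROR alpha gene rorab (-1.92) fell and none of the 10 rose. The rorab value of male 40 µg/L replicate 3, 2.79 CPM, was under the floor. nr1d2a averaged 207 CPM in female controls, 82.8 CPM at 40 µg/L and 109.9 CPM at 200 µg/L and did not pass (adjusted p = 0.0751 and 0.299). nr1d2b averaged 558, 316 and 255 CPM in the same groups and did not pass. At both doses nr1d2a and nr1d2b lay below the female controls without overlap. Over all genes 25% did not overlap at 40 µg/L and 17.9% at 200 µg/L. roraa was at 10.0 ± 4.10 CPM in males at 40 µg/L and 27.9 ± 7.85 CPM in male controls (adjusted p = 0.0506). rorab averaged 13.1, 11.6 and 17.5 CPM in females at 0, 40 and 200 µg/L and did not pass.

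Of the 4 period genes, per1a, per1b and per3 fell in males and none of the 4 passed in females against controls. In females per1b averaged 543, 297 and 184 CPM at 0, 40 and 200 µg/L, and both doses lay below the controls without overlap. In males it averaged 282 CPM at 40 µg/L, against 586 CPM in controls. per1a was at 47.2 ± 2.68 CPM in males at 40 µg/L, against 130 ± 21.5 CPM in controls (adjusted p = 0.00858). In females per1a was at 175 ± 15.9 CPM in controls, 74.0 ± 37.6 CPM at 40 µg/L and 36.9 ± 8.15 CPM at 200 µg/L (adjusted p = 0.132 and 0.0780). per3 averaged 111 CPM in female controls, 57.4 CPM at 40 µg/L and 39.1 CPM at 200 µg/L (adjusted p = 0.219 and 0.169). per2, the copy that light induces in zebrafish, was lower at 200 than at 40 µg/L in females (log2 -0.86, adjusted p = 0.0425).

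Among 7 other cryptochrome genes, cry1b and cry2 fell in males and cry3b rose, while none of the 7 passed in females. cry2 averaged 138, 81.4 and 51.2 CPM in females at 0, 40 and 200 µg/L, and 102 against 173 CPM in males. Both female doses lay below the controls without overlap, whereas cry1b did so at 200 µg/L and overlapped at 40 µg/L. cry3b was at 531 ± 72.2 CPM in males at 40 µg/L, against 226 ± 19.8 CPM in controls (log2 1.23, adjusted p = 0.00861). In females cry3b was at 208 ± 71.3 CPM in controls, 504 ± 68.9 CPM at 40 µg/L and 289 ± 69.6 CPM at 200 µg/L (adjusted p = 0.0599 and 0.571). cry5, the 6-4 photolyase gene, averaged 29.1, 42.4 and 43.8 CPM in females at 0, 40 and 200 µg/L and did not pass.

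Of the 4 genes of E-box repressors present, ciarta, whose protein binds and represses the CLOCK:BMAL pair in mammals, fell in all 3 comparisons. Its log2 differences were -1.84, -2.17 and -2.31 in females at 40 and 200 µg/L and in males at 40 µg/L (adjusted p = 0.0467, 0.0282 and 0.00838). bhlhe41 fell in males (log2 -1.54), and bhlhe40 was lower at 200 than at 40 µg/L in females (log2 -0.71, adjusted p = 0.0271). In females bhlhe41 averaged 52.0, 21.3 and 18.3 CPM at 0, 40 and 200 µg/L and did not pass. Both doses lay below the controls without overlap. Of 12 PAR-bZIP and related output genes, dbpa fell at 200 µg/L (5.23 ± 1.87 CPM, against 37.2 ± 9.82 CPM in female controls, adjusted p = 0.0282) and in males (log2 -1.42). It was also lower at 200 than at 40 µg/L (log2 -1.62). The dbpa value of 200 µg/L replicate 2, 3.29 CPM, was under the floor. tefa, tefb and nfil3-6 fell in males (log2 -0.93, -1.66 and -1.43), as did hlfb, which was listed at 0 in the 3 exposed males, against 331, 261 and 157 counts in controls. Since the floor of the exposed males was 117, 121.5 and 396 counts, the 0 of 40 µg/L replicate 3 cannot be told from any of these control counts. Scaled with TMM to the depth of 40 µg/L replicate 1, the 157 counts also lie under its floor, so that its 0 cannot be told from that control either. Of 13 kinase and ubiquitin ligase genes, 3 fell and 1 rose in males, and those that fell were csnk1da, csnk1db and gsk3aa (log2 -1.47, -1.32 and -0.96). Casein kinase 1 phosphorylates period proteins. In females nfil3-6 averaged 182, 99.1 and 91.8 CPM at 0, 40 and 200 µg/L and csnk1da 152, 95.5 and 100 CPM. Neither passed, and both lay below the female controls without overlap at both doses. tefb and csnk1db did so at 200 µg/L and overlapped at 40 µg/L, and tefa and gsk3aa overlapped at both doses.

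Of 17 other genes of the bHLH-PAS family, to which BMAL and CLOCK belong, and their coactivators, 15 were tested and none passed in females against controls by edgeR, and ncoa2 was lower at 200 than at 40 µg/L (log2 -1.36). In males the neuronal activity gene npas4a rose (log2 2.06), and 4 fell, arnt2 (-1.14), hif1al (-1.21), ahr2 (-1.20) and hif1ab (-0.55). The ahr2 value of male 40 µg/L replicate 3, 10.8 CPM, was under the floor. Between the female doses 2.06% of all tested genes were lower at 200 µg/L and 1.87% higher. Between the controls of the sexes 2.31% of all tested genes were higher in females and 2.09% lower. Of the genes listed, nr1d1 was higher in females (log2 1.03, adjusted p = 0.0434), and tefa (-1.10), nfil3-5 (-1.41), gsk3ba (-1.12), arnt2 (-1.22) and hif1ab (-0.64) were lower.

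**Figure D4:**
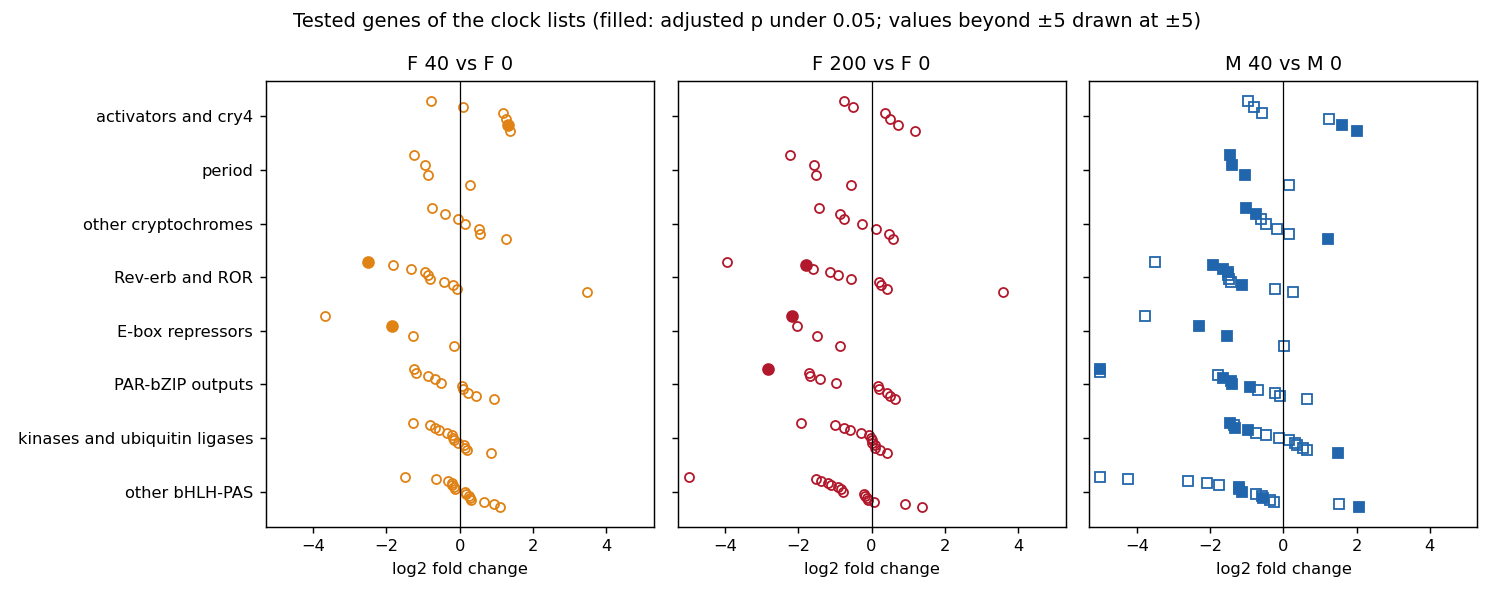
Log2 fold changes (x axis) of the tested genes of 8 lists in females at 40 and 200 µg/L and males at 40 µg/L, each against the controls of its sex; filled symbols passed an adjusted p of 0.05, npas2 is left out and values beyond 5 are drawn at 5. The filled symbols right of 0 include arntl1a in females at 40 µg/L and arntl1a, cry4, cry3b and npas4a in males.

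Markers of other tissues varied between libraries, and their part in these values was not tested. Of 13 pineal and eye genes the summed level was 46.5 to 94.9 CPM in female controls, 91.0 to 259 CPM at 40 µg/L and 54.3 to 1240 CPM at 200 µg/L, and in males 23.0 to 88.2 CPM at 40 µg/L and 30.8 to 43.8 CPM in controls. Of these genes 7 were at 0 in all 3 males at 40 µg/L, where the floor was 117, 121.5 and 396 counts, so that a loss was not detectable at this depth. Single genes went both ways in males without overlap, as 44.6% of all genes did not overlap. exorh averaged 43.8 CPM at 40 µg/L against 13.5 CPM in controls, and asmt 1.38 against 15.2 CPM. gnat2, at 0 in the exposed males, was also lower, and the others overlapped. The highest sum was that of 200 µg/L replicate 2, which also had the highest arntl1a of the females. Without it the log2 difference of arntl1a at 200 µg/L was 0.99 ± 0.21. Of 9 blood genes, the summed level was 961 to 2125 CPM in female controls, 1950 to 12765 CPM at 40 µg/L and 1346 to 14904 CPM at 200 µg/L, and in males 5721 to 10951 CPM at 40 µg/L and 1251 to 7520 CPM in controls. Of 12 skeletal muscle genes it was 30.9 to 86.7, 56.3 to 91.4 and 77.8 to 173 CPM in females at 0, 40 and 200 µg/L, 63.0 to 177 CPM in males at 40 µg/L and 17.7 to 33.8 CPM in male controls. The muscle sums of the male groups did not overlap. Of 7 muscle genes tested in males 1, myhz1.1, was called higher by edgeR, against 8.38% of all tested genes.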

How the data were processed

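Brain poly(A) RNA was measured in 15 libraries. The deposited values are counts per gene symbol, not scaled to depth, in 2 tables whose 3 female control columns are identical. Per the submitters' processing notes, the tools used were STAR, StringTie, DESeq2, FastQC and Picard, whose roles and order are not stated. Counts were fitted with edgeR 4.0.16 in R 4.3.3 (filterByExpr, TMM, robust quasi-likelihood F test, Benjamini-Hochberg), with 9 female libraries, 6 male libraries, or 12 without the 200 µg/L group for contrasts of the sexes. The SE is the log2 fold change divided by the square root of F. The 7 genes, the lists and the rule for naming genes (all 7, up to 4 called genes per list and comparison by smallest p, 11 clock genes, of which 10 were present, whatever their result, and the 3 nearest genes by pattern, skipping symbols that contain a colon or start with zgc, si, LOC or im) were chosen with earlier results of these data known. The fit was tested on simulated data. Of 100 genes changed 2-fold it recovered 9 and 10 in females at 40 and 200 µg/L and 5 in males. For the difference between the sexes it recovered 4. Of 100 genes changed 4-fold it recovered 77, 82, 59 and 38 in the same order. A gene that did not pass can therefore still differ 2-fold. Alternatives were DESeq2 1.42.0, median-of-ratios scaling, no filter, the replicate block, counts divided by 4 and each library left out. Floors cover counting error only. No sequences are printed. The values of 1 listed gene are not reported here, and it stays in the counts.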

Additional observations from a re-analysis of the deposited data

Results flagged for a closer look

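Of 73 genes screened (the 7 genes, the clock and bHLH-PAS genes named, the nearest genes by pattern, the neighbours of arntl1a and cry4 and the brain markers), 7 were opposite between the sexes, in that every 40 µg/L library lay on 1 side of the control mean in females and on the other side in males. The log2 effect of 40 µg/L, female minus male, was 0.85 for gsk3ba, 0.85 for hif1ab and -3.57 for npas4a (edgeR, adjusted p = 0.310, 0.160 and 0.179), and none passed the test of that difference. npas4a was at 144, 111 and 173 CPM in females at 40 µg/L, against 112, 162 and 935 CPM in female controls, so that the female mean rests on control replicate 3. In males it was at 558, 418 and 274 CPM at 40 µg/L, against 118, 114 and 65.6 CPM in controls. The difference was -2.58 for dennd2db, 1.16 for aebp1, 1.75 for ppp1r13l and 1.55 for yrdc (edgeR, adjusted p = 0.319, 0.514, 0.429 and 0.389), and none of these passed either. aebp1, ppp1r13l and yrdc were named for their likeness to arntl1b over the same libraries. In males at 40 µg/L ppp1r13l and yrdc had at most 277 and 289 counts, under the floor of replicate 3, which was 396 counts. Their lowest counts there, 58 and 95, were under the lowest floor of the exposed males, 117 counts. The aebp1 and dennd2db values of male 40 µg/L replicate 3 were under the floor too. The share of all genes that are opposite by this rule was not measured.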

How the results depend on the processing

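No called log2 difference of the 7 genes changed sign under any alternative. Of all tested genes, DESeq2 called 796 in females at 40 µg/L (30 by edgeR), 333 at 200 µg/L (7), 1428 between the female doses (495), 3269 in males (1947), 1742 between the controls (579) and 503 for the difference between the sexes (0). Of the 7 genes DESeq2 called 2 in females at 40 µg/L, 1 at 200 µg/L, 1 between the doses and 1 between the controls. No filter gave 98 calls and counts divided by 4 gave 125 in females at 40 µg/L. The replicate block gave 0 calls in females at 40 µg/L (0 of the 7 genes), 2 at 200 µg/L, 76 between the doses, 973 in males and 283 between the controls. Same-numbered female libraries deviated together with r of -0.13 to 0.12 and male ones with 0.000466 to 0.06. Other pairs had r of -0.20 to 0.17 in females and -0.09 to 0.05 in males. Pairing by number was thus not seen, and 3 libraries per group are few to detect it. Replicate 2 alone for the females at 40 µg/L, chosen after the data were seen, gave 0 calls and 0 of the 7 genes. Without any 1 library the calls were 0 to 289 in females at 40 µg/L (0 to 2 of the 7), 1 to 10 at 200 µg/L (0), 1 to 596 between the doses (0 to 1), 286 to 3144 in males (2 to 3), 0 to 904 between the controls (0) and 0 to 369 for the difference between the sexes (0). Of the 18 nearest genes by pattern, 18 were also nearest with median-of-ratios scaling. The cause of these shifts was not tested. Depth limits arntl2, npas2 and clocka, which were under the floor in 13, 12 and 5 libraries.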

Other observations

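The genes next to arntl1a and cry4 on the chromosome were looked up after the values of both had been seen. btbd10a ends 953 bases before arntl1a in the deposited coordinates and had log2 differences of 0.19 ± 0.26, 0.04 ± 0.26 and 0.31 ± 0.22 (SE) in females at 40 and 200 µg/L and in males at 40 µg/L. borcs5 starts 2315 bases after it and had -0.05 ± 0.37, 0.17 ± 0.37 and 0.21 ± 0.38. dennd2db, 4158 bases after cry4, had -0.58 ± 0.77, 0.67 ± 0.77 and 1.99 ± 0.88. In males dennd2db lay at 5.25 to 6.08 CPM at 40 µg/L, against 0.74 to 1.83 CPM in controls. These ranges did not overlap, as in 44.6% of all genes, and the 5.45 CPM of 40 µg/L replicate 3 was under the floor. zgc:153675, 2620 bases before cry4, had 1.30 ± 0.65, 0.47 ± 0.64 and 0.80 ± 1.68, and its exposed libraries overlapped with the controls in all 3 comparisons. None of the 4 passed (edgeR).

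The ratio of arntl1a to per1a counts, a comparison added after the data were seen, was 0.613 ± 0.134 in female controls, 4.32 ± 2.25 at 40 µg/L and 6.96 ± 3.19 at 200 µg/L (SD, n = 3). In males it was 6.03 ± 0.862 at 40 µg/L and 0.559 ± 0.183 in controls. The 9 exposed libraries ranged from 2.56 to 10.3 and the 6 controls from 0.437 to 0.769. This separation follows from the single genes, since every exposed library lay above every control in arntl1a and below every control in per1a.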
